A study of Mus musculus with 12 samples.

Results

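MHC class I presentation genes encode the proteins that build, load and induce the class I complex, through which a cell shows fragments of its own proteins to CD8+ T cells. Of the 20778 genes in the count table, 10 were taken by symbol. They were the class I heavy chains H2-K1, H2-D1 and H2-T23 and their partner chain B2m, the peptide transporter subunits Tap1 and Tap2, the peptide editors Tapbp (tapasin) and Tapbpl (TAPBPR), the peptide-trimming protease Erap1, and the transcriptional coactivator Nlrc5. All 10 were among the 12122 genes that passed the expression filter and were tested. Their levels were measured in splenic cells left untreated or stimulated in 3 ways.

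A class I molecule consists of a heavy chain, β2-microglobulin (the product of B2m) and a peptide. Peptides are cut from cytosolic proteins by the proteasome, pumped into the endoplasmic reticulum by the TAP transporter, trimmed there by ERAP1 and exchanged on the chain with the help of tapasin and TAPBPR. H2-K1 and H2-D1 are the classical chains of this mouse strain, and H2-T23 encodes the non-classical chain Qa-1, which shows peptides to NKG2 receptors. Interferons are known inducers of the pathway, and NLRC5 is known to act at class I promoters with factors bound to their X and Y boxes.

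The study sequenced RNA from bead-isolated splenic CD8 T cells of C57BL/6 mice, cultured for 6 hours, to compare how different stimuli change their expression. The 12 libraries formed 4 groups of 3: untreated cells (Naïve), cells with an antibody to the T cell receptor component CD3 (αCD3, 1 µg/ml), cells with the cytokine interferon gamma (IFNγ, 70 ng/ml), and cells with the bacterial cell wall component lipopolysaccharide (LPS, 1 µg/ml). The sources give the αCD3 and LPS doses as µg/ml and as mg/ml in different places, and the age as 6 weeks in the labels and older in the methods, so the dose unit and the age are uncertain. No label says whether libraries of a group came from separate animals or cultures, so p-values measure only the spread between these libraries, which may be technical. The labels name no genotype, allele or transgene for any group, and the study's methods describe its C57BL/6 mice as wild type.

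Total counts ranged from 10.2 to 27.6 M per library. Replicate 1 stood apart from replicates 2 and 3 in every group, with a mean chi-square per gene of 20.03 to 51.65 against them and of 4.48 to 5.66 between the other two. The labelled cell type was checked against its markers. The 10 T cell markers, Cd8a and Cd3e among them, summed to 1451 to 2555 CPM per library (CPM are counts set relative to library size), and 9 B cell markers summed to 2091 to 3723 CPM. Cd8a lay at 188 to 504 CPM, while Cd4 lay at 23.2 to 40.4 CPM and 4 NK cell markers summed to 4.4 to 20 CPM. The libraries therefore held T cell and B cell transcripts together. All 9 B cell markers and all 10 myeloid markers were detected in every group. In such bulk samples more cells of a type and more RNA per cell cannot be told apart.

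To place the genes on the genome, symbols were matched to the GENCODE M21 annotation of GRCm38 (mm10). On chromosome 17 lay 6 of them, within the major histocompatibility complex: Tapbp (33915899 to 33929292, plus strand), H2-K1 (33996017 to 34000347, minus strand), Tap1 (34187553 to 34197225, plus strand), Tap2 (34203527 to 34216321, plus strand), H2-D1 (35262730 to 35267499, plus strand) and H2-T23 (36029773 to 36032855, minus strand). B2m was on chromosome 2 (122147686 to 122153083, plus strand), Tapbpl on chromosome 6 (125223933 to 125231860, minus strand), Nlrc5 on chromosome 8 (94434356 to 94527272, plus strand) and Erap1 on chromosome 13 (74639568 to 74693201, plus strand). All 10 are annotated as protein-coding. The class I chains are close copies of each other, and the share of 31-base words found in no other gene was 77.2% for H2-K1, 73.1% for H2-D1 and 74.2% for H2-T23, so some of their reads could have been divided among chains. The share was 73.1% for Tapbp, 85.7% for Tap2, 89% for Erap1 and 94.7% to 100% for the other 4. Tap1 overlaps Psmb9 on the opposite strand, Erap1 overlaps Cast, Tapbpl overlaps Vamp1, B2m overlaps Patl2, and Tapbp overlaps Zbtb22 on its own strand and Gm19412 on the other. H2-T23 overlaps A930015D03Rik, Tap2 overlaps Gm20496 and Gm15821, and Nlrc5 overlaps Mir7072 on its own strand and 9330175E14Rik on the other, which leaves H2-K1 and H2-D1 with no overlap. Whether counting used the strand is not given in the sources used here, so reads in these overlaps are uncertain.

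Promoters were read next, since class I genes are known to share promoter elements and most of the genes moved together in the comparisons that follow. Windows of 250 bases before the gene start, from RefSeq on GRCm38.p6, were found for 7 of the 10 genes, and Tap2, Tapbpl and Nlrc5 had no entry in the table of promoters used here. H2-K1 and B2m are shown because they encode the 2 partner chains of the complex. Each run is written 5′ to 3′ in the direction of the gene, and its capitals mark, in order, an IRF-type site, the X2 core TGACG and the Y box, which reads ATTGG here as the reverse complement of CCAAT.
H2-K1 (chr17:34000348-34000597, minus strand, ending at the base before the gene start): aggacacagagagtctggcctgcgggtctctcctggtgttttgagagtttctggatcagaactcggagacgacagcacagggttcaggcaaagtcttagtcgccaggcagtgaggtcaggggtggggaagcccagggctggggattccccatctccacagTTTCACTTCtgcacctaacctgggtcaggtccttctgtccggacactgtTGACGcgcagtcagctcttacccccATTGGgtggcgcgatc
B2m (chr2:122147437-122147685, plus strand, ending 2 bases before the gene start): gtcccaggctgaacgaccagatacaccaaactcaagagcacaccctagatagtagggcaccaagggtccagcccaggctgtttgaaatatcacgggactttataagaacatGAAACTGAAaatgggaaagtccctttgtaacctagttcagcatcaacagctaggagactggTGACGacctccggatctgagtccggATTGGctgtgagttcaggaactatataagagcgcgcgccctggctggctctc
The IRF-type site of B2m has the form GAAANNGAA, and that of H2-K1 has the form GAANNGAAA on the other strand, a form that was added to the search after the H2-K1 promoter had been seen.

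In H2-K1, B2m and H2-D1 the X2 core and the Y box were separated by exactly 20 bases. The stretches are shown because this spacing was the same in the 3 genes.
B2m (chr2:122147609-122147638, plus strand): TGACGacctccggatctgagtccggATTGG
H2-K1 (chr17:34000359-34000388, minus strand): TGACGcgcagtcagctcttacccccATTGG
H2-D1 (chr17:35262993-35263022, plus strand): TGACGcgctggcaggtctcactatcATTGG
All 250 bases of the H2-D1 window, and so its stretch, lie in annotated exons of some transcript, as do all 250 of Tap1, Tapbp and Erap1 and 154 of H2-T23, so matches in these windows are not all outside transcribed sequence. Among all 32851 RefSeq promoter windows of this length, 30 (0.0913%) held this pair at this spacing, which was itself chosen after the sequences had been seen, and 3.18% held an X2 core with a Y box within 40 bases.

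Other motifs were searched on both strands in the same windows. GAAANNGAA was found in H2-T23, B2m and Erap1 (7.13% of all windows), and GAANNGAAA in H2-K1 and H2-D1 (6.31%). The κB-like motif GGGNNTTNC was in H2-K1, H2-D1 and B2m (13% of all windows), and in H2-K1 and B2m it lies in lower case beside the first capitals above. TGACG was in 4 of the 7 genes, these 3 and Tap1 (17.8%), and CCAAT in 6 of the 7, all but Erap1 (33.8%). The GAS motif TTCNNNGAA was in none of the 7 windows, against 7.02% of all windows, which says only that these letters are not in these windows. Bases of the X2 and Y pairs count again in the TGACG and CCAAT totals, and a match describes letters, not binding.

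**Figure D1:**
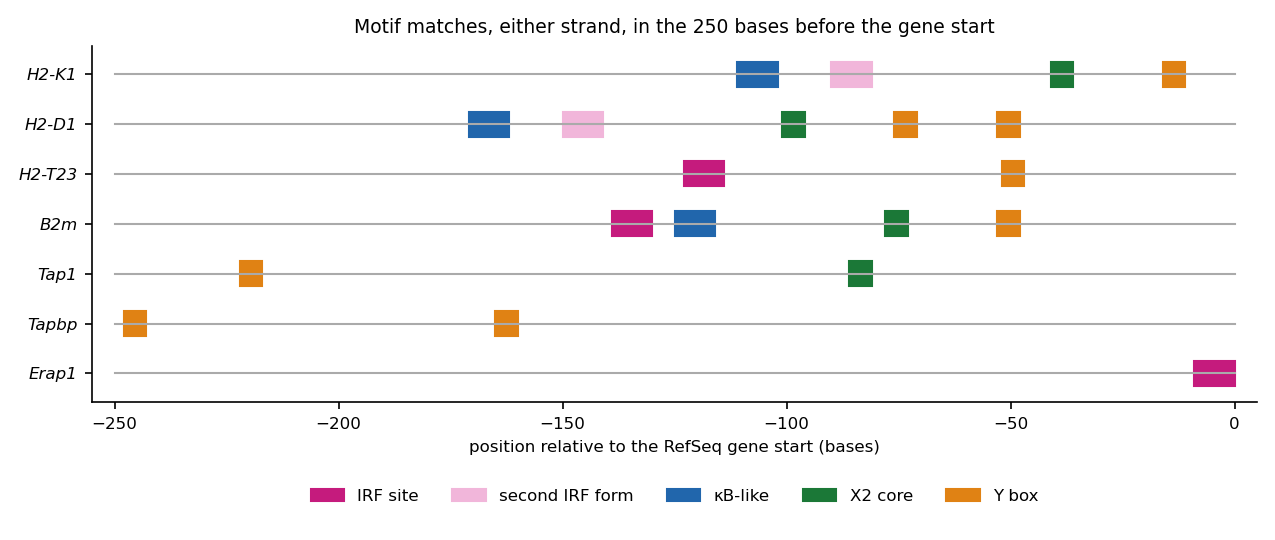
Motif matches on either strand in the 250 bases before the RefSeq gene start of the 7 genes with an entry. The x axis gives the position in bases relative to the start, and each block is 1 match. The X2 core and the Y box lie 20 bases apart in H2-K1, H2-D1 and B2m, and Erap1 holds a single match, an IRF site next to its start.

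Untreated cells already carried substantial class I transcripts. Per kilobase of mean coding transcript length, B2m had the highest Naïve level, at 3330.1 ± 331 CPM per kb (SD, n = 3), above H2-K1 (1649.7 ± 9.47) and H2-D1 (1069 ± 21). H2-T23 followed at 207 ± 14.1 CPM per kb, Tap1 at 141 ± 6.4 and Tap2 at 62.8 ± 3.92. The least abundant were Tapbpl at 31.5 ± 0.258 CPM per kb, Erap1 at 26.7 ± 2.32, Nlrc5 at 18.2 ± 2.84 and Tapbp at 16.9 ± 0.299. The chains and the transporter subunits thus lay above the editors, the protease and the coactivator, and among neighbours in this order Nlrc5 and Tapbp alone lay within 1 SD of each other. Counts behind a single value ranged from 585 (Tapbp) to 81688 (B2m).

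The 10 genes together took 0.889% to 0.966% of all counts in the Naïve libraries, 0.93% to 1.11% in αCD3, 1.39% to 1.55% in IFNγ and 1.02% to 1.28% in LPS. The IFNγ libraries lay above all others, and αCD3 overlapped both Naïve and LPS. For 9 of the 10 genes the mean level fell in the order IFNγ, LPS, αCD3, Naïve, an order shared by 4.28% of the tested genes. Erap1 was the exception, with LPS highest, then αCD3, IFNγ and Naïve, an order shared by 9.1% of the tested genes.

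**Figure D2:**
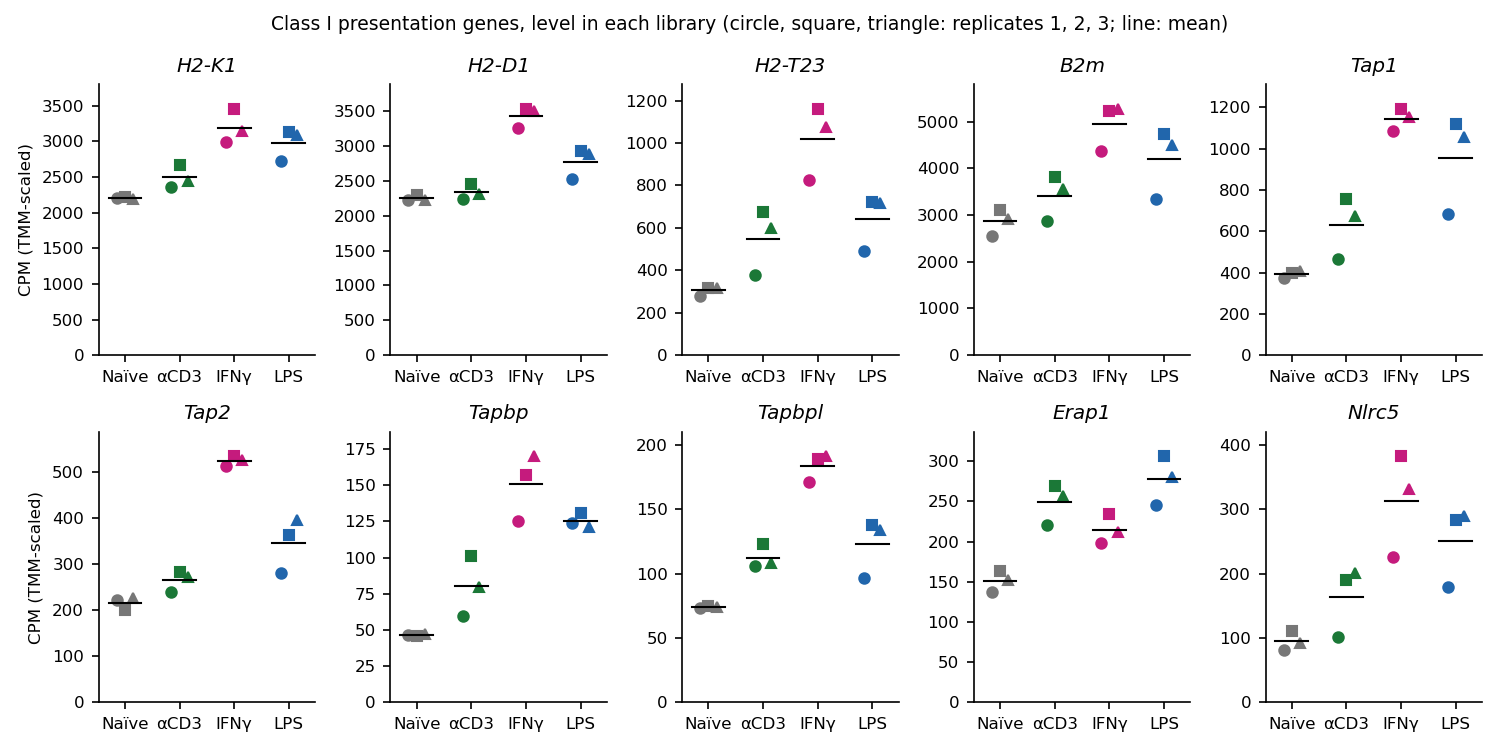
Level of each of the 10 genes in each of the 12 libraries, in CPM scaled by TMM factors (y axis from 0), by group (x axis). Circles, squares and triangles are replicates 1, 2 and 3, and lines are group means. IFNγ has the highest mean for every gene but Erap1, which is highest in LPS, and replicate 1 is the lowest of its group in all αCD3 and IFNγ panels.

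All 10 genes differed among the 4 groups (quasi-likelihood F-test of edgeR with Benjamini-Hochberg adjustment, used for every adjusted p unless another tool is named, with the highest at 0.00387 for B2m), where 59.9% of all tested genes did. Against Naïve, IFNγ and LPS raised all 10, and αCD3 raised 5, namely H2-T23, Tap1, Tapbp, Tapbpl and Erap1. Their median log2 fold change was 1.29 with IFNγ, 0.65 with αCD3 and 0.81 with LPS, where all tested genes had -0.02, -0.02 and -0.01. These 3 comparisons share the Naïve libraries. Among all tested genes 8.17% rose and 4.27% fell with IFNγ, 22.9% rose and 15.7% fell with αCD3, and 26.9% rose and 22.3% fell with LPS. The IFNγ and Naïve libraries did not overlap for any of the 10 genes, nor did those of LPS and Naïve, and αCD3 and Naïve did not overlap for 7, in each case with the stimulated libraries higher. Among all tested genes, every stimulated library lay above every Naïve library for 16.1% with IFNγ, 30.6% with LPS and 28.6% with αCD3.

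The αCD3 count depended on how replicates were treated. With the replicate number as a block it was 9 of 10, all but H2-D1 (28.1% of all tested genes rose in that fit), and with the replicates numbered 1 left out it was the same 9 genes (26.7% rose). It was 3 without αCD3 replicate 2, where 16.9% of all tested genes rose, and 8 without LPS replicate 1, where 23.2% did.

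**Figure D3:**
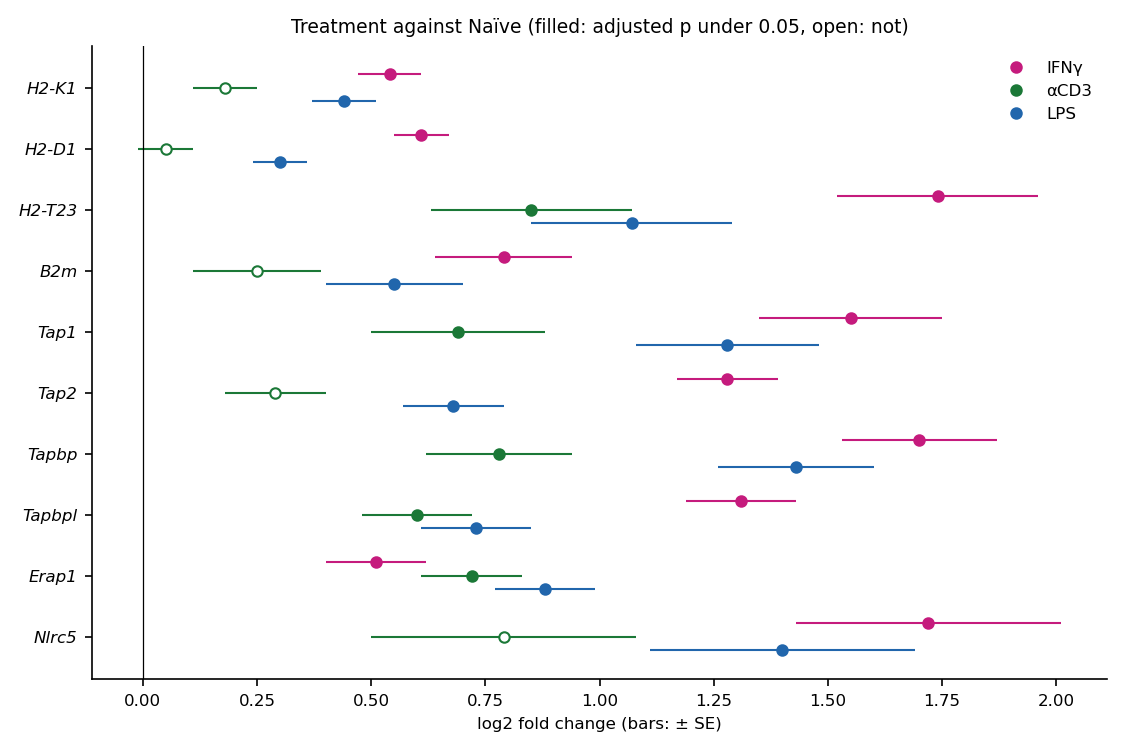
Log2 fold change of each gene against Naïve (x axis) for IFNγ, αCD3 and LPS, with bars for the standard error. Filled circles have an adjusted p under 0.05, and all IFNγ and LPS circles and 5 of the 10 αCD3 circles are filled.

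The classical chain genes H2-K1 and H2-D1 rose by less than 2-fold with IFNγ and LPS. H2-K1 was at 2201, 2213 and 2188 CPM in the Naïve libraries, 2362, 2667 and 2446 in αCD3, 2984, 3449.8 and 3136 in IFNγ, and 2716, 3123 and 3093 in LPS. Every stimulated library was above every Naïve library, and IFNγ and LPS overlapped. H2-K1 rose with IFNγ (log2 fold change 0.54 ± 0.07 SE, adjusted p = 0.00114) and LPS (0.44 ± 0.07, adjusted p = 6.16e-04). The LPS value ranged from 0.23 to 0.5 over 20 alternatives and was called in all. With αCD3 its difference was 0.18 ± 0.07 (adjusted p = 0.0707, 0.00914 with the replicate block). It was higher in IFNγ than in αCD3 (0.36 ± 0.07, adjusted p = 0.00277) and lower in αCD3 than in LPS (-0.26 ± 0.07, adjusted p = 0.03, called in 13 of 20 alternatives with an adjusted p of up to 0.114), and IFNγ and LPS differed by 0.10 ± 0.07 (adjusted p = 0.296).

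H2-D1 was at 2218, 2298 and 2226 CPM in Naïve, 2237, 2455 and 2307 in αCD3, 3254, 3527 and 3501 in IFNγ, and 2521, 2919.9 and 2877 in LPS. The αCD3 and Naïve libraries overlapped, LPS lay above both, and IFNγ lay above all. H2-D1 rose with IFNγ by 0.61 ± 0.06 on the log2 scale (adjusted p = 3.30e-04) and with LPS by 0.30 ± 0.06 (adjusted p = 0.00268), and this last call was lost when libraries were scaled by their size without TMM factors (0.09, adjusted p = 0.137). The difference between αCD3 and Naïve was 0.05 ± 0.06 (adjusted p = 0.53), and -0.06 under that scaling. IFNγ was higher than αCD3 (0.55 ± 0.06, adjusted p = 7.99e-05) and than LPS (0.31 ± 0.06, adjusted p = 0.00299), and αCD3 was lower than LPS (-0.25 ± 0.06, adjusted p = 0.02, called in 14 of 20 alternatives with an adjusted p of up to 0.0947). The ratio of H2-K1 to H2-D1 was 0.963 to 0.993 in Naïve and 0.896 to 0.978 in IFNγ, and 1.06 to 1.09 in αCD3 and 1.07 to 1.08 in LPS. It was thus under 1 in the first pair of groups and over 1 in the second.

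The non-classical chain gene H2-T23 had larger fold changes than the classical chains. Its levels were 281, 317 and 318 CPM in Naïve, 378, 674 and 598 in αCD3, 825, 1160.2 and 1075 in IFNγ, and 489.7, 720.4 and 717 in LPS. IFNγ lay above all other libraries and Naïve under all, while αCD3 and LPS overlapped. It rose 3.34-fold with IFNγ (1.74 ± 0.22, adjusted p = 0.001), 1.8-fold with αCD3 (0.85 ± 0.22, adjusted p = 0.0117) and 2.1-fold with LPS (1.07 ± 0.22, adjusted p = 0.00246). IFNγ exceeded αCD3 by 0.89 ± 0.22 (adjusted p = 0.00869) and LPS by 0.67 ± 0.22 (adjusted p = 0.0314), the latter lost without IFNγ replicate 2 (adjusted p = 0.101), IFNγ replicate 3 (0.0795) or LPS replicate 1 (0.0953). αCD3 and LPS differed by -0.22 ± 0.22 (adjusted p = 0.515). The αCD3 call was lost without αCD3 replicate 2 (adjusted p = 0.0526).

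B2m, whose product is shared by all class I heavy chains, was at 2556, 3118 and 2918 CPM in Naïve, 2881, 3807 and 3552 in αCD3, 4361, 5235 and 5267 in IFNγ, and 3344, 4741 and 4503 in LPS. Naïve and αCD3 overlapped, as did LPS with αCD3 and with IFNγ. B2m rose 1.73-fold with IFNγ (0.79 ± 0.15, adjusted p = 0.00593) and 1.47-fold with LPS (0.55 ± 0.15, adjusted p = 0.00953), and its difference with αCD3 was 0.25 ± 0.14 (adjusted p = 0.192, 0.00179 with the replicate block). Over 21 alternatives the LPS value ranged from 0.34 to 0.69, called in all, and the αCD3 value from 0.14 to 0.36, called in 2. It was higher in IFNγ than in αCD3 (0.54 ± 0.15, adjusted p = 0.0142). IFNγ and LPS differed by 0.24 ± 0.14 (adjusted p = 0.213, 0.00155 with the block), and αCD3 and LPS by -0.30 ± 0.14 (adjusted p = 0.18, 0.00124 with the block).

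Because reads can be divided among similar chains, the counts of all class I heavy chain genes of the H2 family in the table were also summed into a single feature. The sum rose with IFNγ (0.66 ± 0.06, adjusted p = 3.20e-04) and LPS (0.42 ± 0.06, adjusted p = 3.17e-04) and differed from Naïve by 0.12 ± 0.06 with αCD3 (adjusted p = 0.156). IFNγ exceeded αCD3 by 0.54 ± 0.06 (adjusted p = 7.55e-05) and LPS by 0.25 ± 0.06 (adjusted p = 0.00873), and αCD3 lay 0.30 under LPS (-0.30 ± 0.06, adjusted p = 0.00736). The summed chains were called in the same comparisons as H2-D1.

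Both transporter subunits rose with IFNγ and LPS. Tap1 was at 372, 396 and 407 CPM in Naïve, 466, 757 and 672 in αCD3, 1085, 1192 and 1156 in IFNγ, and 684, 1122 and 1055 in LPS. No stimulated library fell into the Naïve range, and LPS replicate 1 lay among the αCD3 libraries. Tap1 rose 2.92-fold with IFNγ (1.55 ± 0.20, adjusted p = 9.67e-04), 1.61-fold with αCD3 (0.69 ± 0.19, adjusted p = 0.0174) and 2.44-fold with LPS (1.28 ± 0.20, adjusted p = 3.96e-04). The αCD3 call was lost without Naïve replicate 1 (adjusted p = 0.0557), αCD3 replicate 2 (0.0749) or αCD3 replicate 3 (0.0566). IFNγ exceeded αCD3 (0.86 ± 0.19, adjusted p = 0.00553), and its difference from LPS was 0.26 ± 0.19 (adjusted p = 0.301). Between αCD3 and LPS it was -0.59 ± 0.19 (adjusted p = 0.0542, 0.00898 with the block).

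Tap2 was at 221, 201 and 226 CPM in Naïve, 239.7, 283 and 271 in αCD3, 513, 533 and 526 in IFNγ, and 281, 362 and 395 in LPS. The IFNγ libraries lay close together and above every other library. Tap2 rose 2.42-fold with IFNγ (1.28 ± 0.11, adjusted p = 3.11e-04) and 1.6-fold with LPS (0.68 ± 0.11, adjusted p = 6.75e-04), and differed by 0.29 ± 0.11 with αCD3 (adjusted p = 0.064, 0.027 with the block). IFNγ exceeded αCD3 (0.99 ± 0.11, adjusted p = 8.13e-05) and LPS (0.60 ± 0.11, adjusted p = 0.00163), and αCD3 was lower than LPS (-0.39 ± 0.11, adjusted p = 0.0355, called in 10 of 21 alternatives with an adjusted p of up to 0.139), although their libraries overlapped. The ratio of Tap1 to Tap2 in CPM was 1.68 to 1.97 in Naïve, 1.94 to 2.67 in αCD3, 2.12 to 2.24 in IFNγ and 2.44 to 3.1 in LPS. Both IFNγ and LPS libraries lay above the Naïve range of this ratio, and LPS lay above IFNγ.

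Both peptide editors rose with each stimulus. Tapbp was at 46.2, 45.7 and 47.3 CPM in Naïve, 59.9, 101 and 79.7 in αCD3, 125, 157 and 169.8 in IFNγ, and 124, 131 and 121 in LPS. The Naïve and αCD3 libraries lay under all IFNγ and LPS libraries. Tapbp rose 3.24-fold with IFNγ (1.70 ± 0.17, adjusted p = 3.21e-04), 1.72-fold with αCD3 (0.78 ± 0.16, adjusted p = 0.00377) and 2.7-fold with LPS (1.43 ± 0.17, adjusted p = 5.91e-05). IFNγ was higher than αCD3 (0.91 ± 0.16, adjusted p = 0.00134) and αCD3 lower than LPS (-0.65 ± 0.16, adjusted p = 0.0186, called in 18 of 21 alternatives with an adjusted p of up to 0.066), while IFNγ and LPS differed by 0.26 ± 0.16 (adjusted p = 0.219).

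Tapbpl was at 73.5, 74.7 and 74 CPM in Naïve, 106, 123 and 108 in αCD3, 171, 189 and 191 in IFNγ, and 96.9, 138 and 134 in LPS. It differed from Tapbp in that LPS and αCD3 overlapped and IFNγ lay above LPS. Tapbpl rose 2.48-fold with IFNγ (1.31 ± 0.12, adjusted p = 3.11e-04), 1.52-fold with αCD3 (0.60 ± 0.12, adjusted p = 0.00254) and 1.66-fold with LPS (0.73 ± 0.12, adjusted p = 5.51e-04). IFNγ exceeded αCD3 by 0.71 ± 0.12 (adjusted p = 8.52e-04) and LPS by 0.58 ± 0.12 (adjusted p = 0.00259), and αCD3 and LPS differed by -0.13 ± 0.12 (adjusted p = 0.49).

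Erap1, the trimming protease, differed from the other genes of the set in its order of group means. It was at 137, 163 and 152 CPM in Naïve, 221, 269 and 257 in αCD3, 198, 234 and 212 in IFNγ, and 246, 306 and 280.2 in LPS. All LPS libraries lay above all IFNγ libraries, and αCD3 overlapped both. Erap1 rose 1.42-fold with IFNγ (0.51 ± 0.11, adjusted p = 0.0113, lost without IFNγ replicate 2 at 0.0552), 1.65-fold with αCD3 (0.72 ± 0.11, adjusted p = 4.62e-04) and 1.84-fold with LPS (0.88 ± 0.11, adjusted p = 8.35e-05). It was lower in IFNγ than in LPS (-0.37 ± 0.11, adjusted p = 0.0176), a call lost without IFNγ replicate 1 (0.0731), IFNγ replicate 3 (0.0508) or LPS replicate 2 (0.0768). Between IFNγ and αCD3 the difference was -0.21 ± 0.11 (adjusted p = 0.143, 0.0012 with the block), and between αCD3 and LPS -0.16 ± 0.11 (adjusted p = 0.342, 0.0123 with the block).

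Nlrc5, the coactivator, had the highest coefficient of variation of the 10 genes in Naïve (15.5%), αCD3 (33.1%) and IFNγ (25.5%). Its levels were 81.5, 111 and 92.4 CPM in Naïve, 102, 189.8 and 201 in αCD3, 225, 382 and 332 in IFNγ, and 179, 283 and 289.6 in LPS. Replicate 1 of each stimulated group lay well under the other 2, and αCD3 replicate 1 lay inside the Naïve range. Nlrc5 rose 3.3-fold with IFNγ (1.72 ± 0.29, adjusted p = 0.00388) and 2.64-fold with LPS (1.40 ± 0.29, adjusted p = 0.00264). With αCD3 it differed by 0.79 ± 0.29 (adjusted p = 0.0508), and this passed the threshold with the block (8.79e-04), with DESeq2 (0.0173) and without αCD3 replicate 1 (1.04, adjusted p = 0.00825). IFNγ exceeded αCD3 by 0.93 ± 0.29 (adjusted p = 0.0261), a call lost without αCD3 replicate 1 (0.0622), IFNγ replicate 2 (0.0934) or IFNγ replicate 3 (0.0674), with no filter on low counts (0.0507) and with only the 2 groups compared (0.0594). IFNγ and LPS differed by 0.32 ± 0.28 (adjusted p = 0.395, 0.047 with the block), and αCD3 and LPS by -0.61 ± 0.29 (adjusted p = 0.163, 0.00355 with the block).

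Set directly against αCD3, IFNγ was higher in 9 of the 10 genes and lower in none (15.8% of all tested genes were higher and 21.4% lower), and the exception was Erap1. Against LPS, IFNγ was higher in 4 genes, H2-D1, H2-T23, Tap2 and Tapbpl, and lower in Erap1 (18% higher and 22.4% lower among all tested genes). αCD3 was lower than LPS in 4 genes, H2-K1, H2-D1, Tap2 and Tapbp, and higher in none (9.64% of tested genes were higher and 9.76% lower). The median log2 fold change of the 10 was 0.78, 0.28 and -0.28 in these comparisons, against 0.03, 0.04 and -0.01 over all tested genes. The comparisons share libraries with each other and with those against Naïve.

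The αCD3 and LPS difference depended most on the fit. With the replicate block 8 genes were lower in αCD3 (18.2% of all tested genes), and with the replicates numbered 1 left out 8 were (15.1%). It was 0 without αCD3 replicate 3 (6 of the genes had an unadjusted p under 0.05 in edgeR, and 6.01% of all tested genes were lower), 0 without LPS replicate 2 (5 genes, and 5.76% lower), and 7 without LPS replicate 1 (10.5% lower). Without αCD3 replicate 1 it was 1 (7.44% lower), as it was without LPS replicate 3 (6.01% lower), and a count of 1 of 10 is near these shares. H2-K1, H2-D1 and Tap2 each lost this call without αCD3 replicate 1 or 3 or LPS replicate 2 or 3, Tap2 also without any 1 IFNγ library, and Tapbp without αCD3 replicate 3 or LPS replicate 2. Between IFNγ and LPS, 6 genes were higher and 1 lower with the replicate block (25.8% higher and 26.9% lower among all tested genes). There 7 genes were higher and 1 lower with the replicates numbered 1 left out (22.3% higher and 25.5% lower among all tested genes), and 3 were higher and none lower without IFNγ replicate 3 (15.1% of all tested genes were higher).

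**Figure D4:**
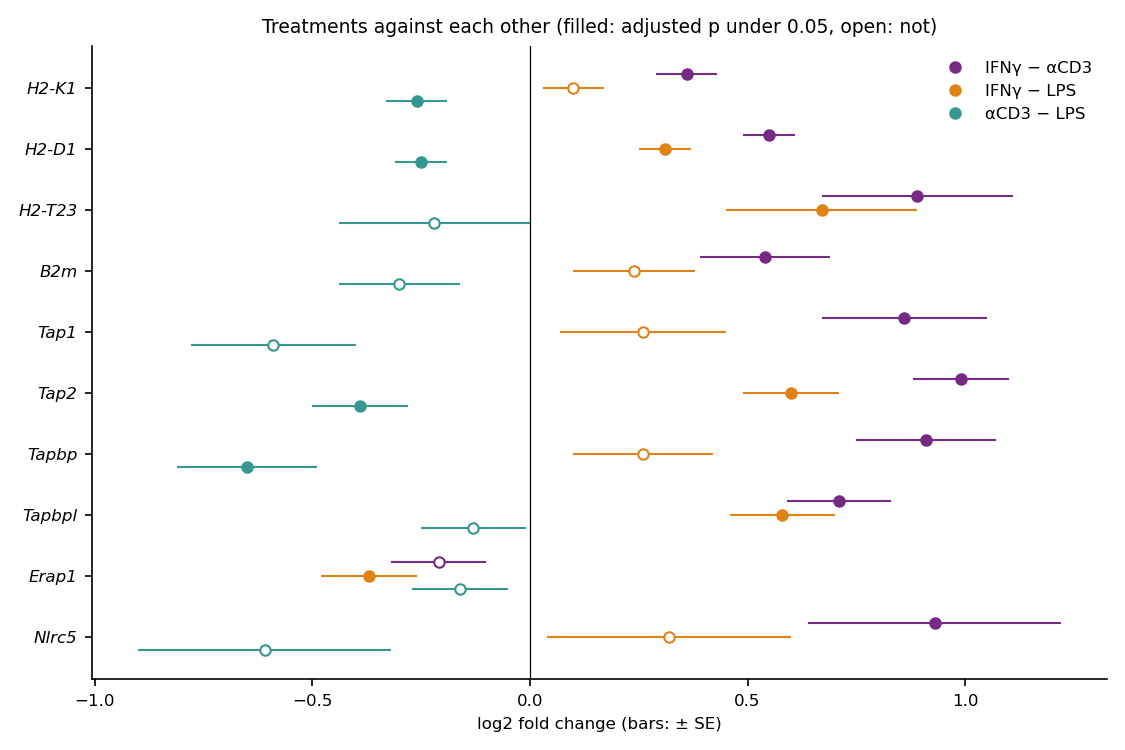
Log2 fold change of each gene between pairs of stimulated groups (x axis), with bars for the standard error and filled circles for an adjusted p under 0.05. IFNγ exceeds αCD3 in 9 genes, Erap1 lies on the negative side in all 3 comparisons, and all αCD3 against LPS values are under 0.

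Replicate 1 was the lowest library of its group for 7 of the 10 genes in Naïve, for all 10 in αCD3 and in IFNγ, and for 9 in LPS. Among all tested genes it was the lowest for 42.6%, 40.1%, 39.5% and 38.1%. Summed myeloid markers were also lowest in replicate 1, at 642 CPM against 1194 to 1206 in Naïve, 551 against 979.5 to 995 in αCD3, 1028 against 1683 to 1708 in IFNγ, and 666 against 1084 to 1190.1 in LPS. NK cell markers (4.4 to 7.29 CPM against 12.1 to 20) and 3 erythroid markers (94 to 162 CPM against 378 to 1183) ran the same way, as did CD4 T cell markers (66.9 to 103 CPM in the replicates numbered 1, each the lowest of its group). T cell markers were lowest in replicate 1 in αCD3 alone. The mean of the summed myeloid markers was highest in IFNγ (1473 CPM against 1014 in Naïve). Each IFNγ library lay above the Naïve library of its number (1028 against 642, 1708 against 1206, 1683 against 1194), and IFNγ replicate 1 lay under Naïve replicates 2 and 3. With IFNγ 1 of 10 myeloid genes was called higher than Naïve and none lower. It was Mpeg1 (1.30 ± 0.35, adjusted p = 0.0372, named after its values were seen), and values of the others ranged from -1.28 (Cd14) to 0.73 (C1qb). With αCD3 4 of 10 were lower, and with LPS 6 were lower and 1 higher (15.7% and 22.3% of all tested genes were lower). With the replicate block 3 were higher and 3 lower with IFNγ, 1 and 9 with αCD3, and 2 and 8 with LPS. The part of these cells in the levels of the 10 genes was not tested.

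T cell markers summed to 1760.1 to 1964 CPM in Naïve, 2364 to 2555 in αCD3, 1804 to 1971 in IFNγ and 1451 to 1660.3 in LPS. None of the 10 was called with IFNγ in edgeR (3 at an unadjusted p under 0.05, 2 with DESeq2 and 0 with limma-voom), 5 rose and 1 fell with αCD3, and 7 fell with LPS. B cell markers summed to 3397 to 3723 CPM in Naïve, 2409.7 to 2755 in αCD3, 2785 to 2858 in IFNγ and 2091 to 3097 in LPS, with 2, 4 and 2 of 9 lower and 0, 0 and 1 higher than in Naïve. CD4 T cell markers were at 66.9 to 122 CPM, with 0 (1 at an unadjusted p under 0.05, 0 with DESeq2 or limma-voom), 2 and 3 of 4 lower, and dendritic cell markers at 46.3 to 116 CPM, with 2, 2 and 1 of 5 lower and 1 higher with LPS. Of NK cell markers 1 of 4 fell with LPS, and edgeR, DESeq2 and limma-voom called no erythroid marker in these comparisons (0 at an unadjusted p under 0.05), while the block called 3 with IFNγ and 2 with LPS as higher. Of all tested genes 4.27% fell with IFNγ, 15.7% with αCD3 and 22.3% with LPS. The B cell, dendritic cell and NK cell counts that fell with LPS are near that last share. The part of the cells with these markers in the class I results was likewise not tested.

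**Figure D5:**
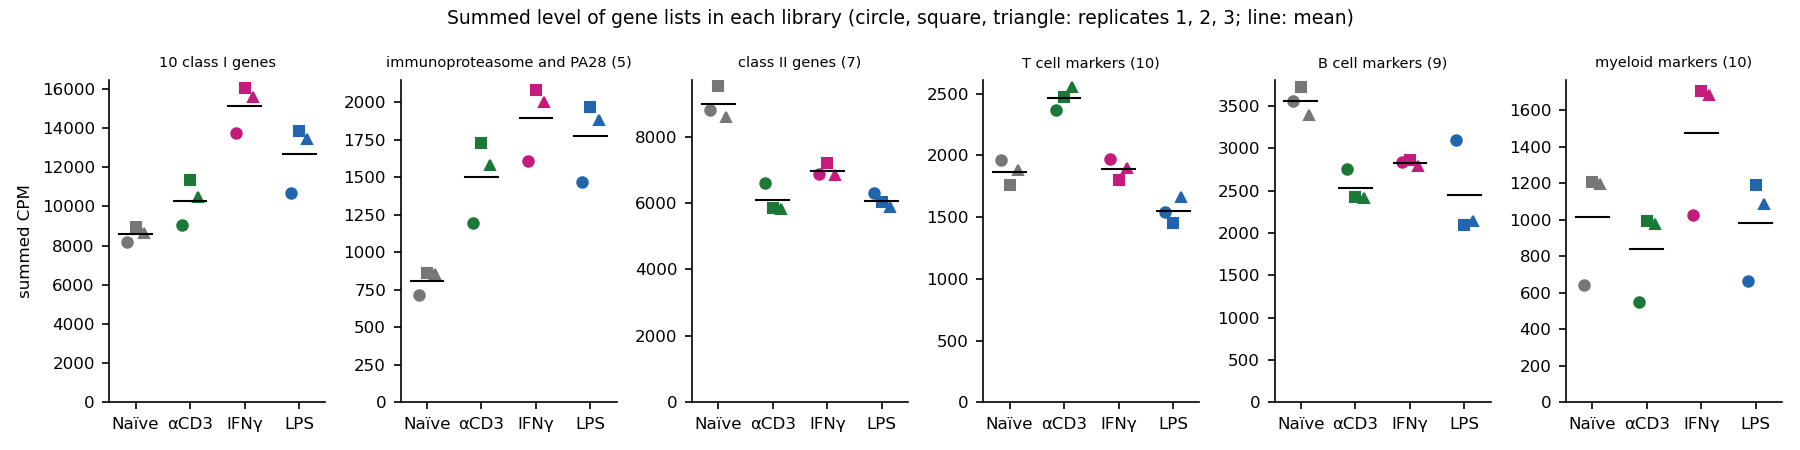
Summed CPM (y axis from 0) of the 10 class I genes and of 5 other gene lists in each library, by group, with the number of genes in parentheses. Circles, squares and triangles are replicates 1, 2 and 3, and lines are means. Class I and immunoproteasome sums rise in all stimulated groups, while class II sums are lower in all of them. B cell sums exceed T cell sums in every Naïve, IFNγ and LPS library and in αCD3 replicate 1.

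Class II genes, which present peptides to CD4 T cells and are expressed by B cells and other antigen-presenting cells, went the other way. None of 7 rose against Naïve, and 5 fell with IFNγ, 7 with αCD3 and 6 with LPS (4.27%, 15.7% and 22.3% of all tested genes fell). Their sum was 8576 to 9516 CPM in Naïve, 5805 to 6599.9 in αCD3, 6835 to 7199 in IFNγ and 5891 to 6316 in LPS. Cd74, the invariant chain, was at 5272, 5738 and 5178 CPM in Naïve and 4348, 4457 and 4320.4 in IFNγ (-0.30 ± 0.06, adjusted p = 0.0053), and H2-Eb1 fell with LPS by 1.03 on the log2 scale (adjusted p = 0.0013). IFNγ was higher than αCD3 in 2 and than LPS in 4 of the 7, and αCD3 and LPS differed in none in edgeR (2 at an unadjusted p under 0.05, 1 with DESeq2, 0 with limma-voom, 1 higher and 1 lower with the block).

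Other class I heavy chains followed with IFNγ. Of 16 listed, 12 were tested. With IFNγ 7 rose and none fell (8.17% of all tested genes rose). With αCD3 3 rose, near the share of all tested genes (22.9%), and 1 fell. With LPS 5 rose and 1 fell (26.9% of all tested genes rose). H2-T24, a non-classical chain, was at 14.8, 23.1 and 20.1 CPM in Naïve, 29.8, 93.4 and 78.9 in αCD3, 101, 180.5 and 162 in IFNγ, and 79.6, 94.5 and 88.3 in LPS. It rose with all of them (2.94 ± 0.39, adjusted p = 0.0012 for IFNγ, 1.80 ± 0.38, adjusted p = 0.00422 for αCD3, 2.19 ± 0.38, adjusted p = 0.001 for LPS) and was higher in IFNγ than in αCD3 (1.14 ± 0.36, adjusted p = 0.0301), and H2-T22 rose with IFNγ (1.50 ± 0.22, adjusted p = 0.00187) and LPS (1.12 ± 0.22, adjusted p = 0.00185). Only 32.6% of the 31-base words of H2-T22 are in no other gene, so its value is uncertain. The same holds for H2-T10 (35.8%), H2-Q4 (47%) and H2-Q6 (48.2%), named for this reason, which are among the 7 that rose with IFNγ. Cd1d1, a lipid-presenting class I-like chain, was the gene that fell, by 0.73 with αCD3 and by 0.86 with LPS (adjusted p = 0.00321 and 9.72e-04). IFNγ exceeded αCD3 in 8 of the 12 and LPS in 4, and αCD3 was lower than LPS in 4.

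The immunoproteasome, which cuts many class I peptides after induction by interferon, rose with the class I genes. All 5 genes of the list, the catalytic subunits Psmb8, Psmb9 and Psmb10 and the activator subunits Psme1 and Psme2, rose with IFNγ and LPS, and all but Psmb10 with αCD3. The αCD3 count was 4 with DESeq2, 3 with limma-voom and 5 with the block. Psmb9, the neighbour of Tap1, was at 55.8, 67.2 and 71.4 CPM in Naïve, 76.6, 119 and 111 in αCD3, 192, 239 and 208 in IFNγ, and 92.2, 179 and 157 in LPS. IFNγ lay above all other libraries. Psmb9 rose by 1.72 ± 0.24 with IFNγ (adjusted p = 0.00151) and 1.14 ± 0.24 with LPS (adjusted p = 0.00264), while the largest change with LPS was that of Psme2 (1.47 ± 0.16, adjusted p = 3.30e-05). Psmb10 rose by 1.33 ± 0.25 with IFNγ and 1.09 ± 0.25 with LPS (adjusted p = 0.00669 and 0.00459). With αCD3 Psme1 and Psme2 rose by 1.02 ± 0.15 and 1.14 ± 0.16 (adjusted p = 3.57e-04 and 2.68e-04). IFNγ exceeded αCD3 in 3 of the 5, Psmb9 and Psmb10 at least 2-fold (1.06 ± 0.23 and 1.01 ± 0.25, adjusted p = 0.00505 and 0.00891). Between IFNγ and LPS edgeR called none (2 at an unadjusted p under 0.05, 2 with DESeq2, 0 with limma-voom, 3 higher and 1 lower with the block), and between αCD3 and LPS none (1 at an unadjusted p under 0.05, 1 with DESeq2, 0 with limma-voom, 4 lower with the block).

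Chaperones and peptidases of class I loading that serve other pathways too were listed next. Of 12 tested, 2 rose with IFNγ (Lnpep, 0.52 ± 0.10, and Lap3, 0.81 ± 0.19, named after their values were seen), 6 rose and 2 fell with αCD3, and 6 rose and 1 fell with LPS. The cytosolic peptidase Thop1 rose with αCD3 (1.40 ± 0.12, adjusted p = 1.85e-05) and LPS (1.71 ± 0.12, adjusted p = 3.24e-06) and was lower in IFNγ than in αCD3 (-1.47 ± 0.12, adjusted p = 1.23e-05) and LPS (-1.78 ± 0.12, adjusted p = 2.54e-06). The aminopeptidase Lap3 rose by 1.27 ± 0.19 with αCD3 and 1.67 ± 0.19 with LPS (adjusted p = 5.39e-04 and 6.27e-05). Calr, the chaperone calreticulin, was at 818, 906 and 961 CPM in Naïve and 783, 769 and 844 in IFNγ, which overlapped, and at 1070.3, 1236 and 1276 in αCD3. IFNγ was lower than αCD3 in 4 genes and higher in 2 (21.4% and 15.8% of all tested genes). It was lower than LPS in 5 and higher in 2 (22.4% and 18%). αCD3 exceeded LPS in 2 and was lower in none. Like Erap1, this list thus held genes that were higher in LPS than in IFNγ.

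Of 13 transcription factors linked to class I promoters, 3 rose with IFNγ, 4 rose and 1 fell with αCD3, and 7 rose and 1 fell with LPS. The shares of all tested genes that rose were 8.17%, 22.9% and 26.9%. Irf1, an interferon-induced activator, was at 239, 267 and 310.2 CPM in Naïve, 339, 546 and 447 in αCD3, 1292, 1102 and 1141 in IFNγ, and 389, 1039 and 998 in LPS. All IFNγ libraries were high, and LPS replicate 1 lay among the αCD3 libraries. Irf1 rose with IFNγ (2.11 ± 0.32, adjusted p = 0.00226) and LPS (1.57 ± 0.32, adjusted p = 0.00227) and was higher in IFNγ than in αCD3 (1.41 ± 0.31, adjusted p = 0.00534). Irf2, its relative, rose with IFNγ (1.05 ± 0.09, adjusted p = 2.74e-04) and was higher there than in LPS (1.32 ± 0.09, adjusted p = 2.56e-06). Nfkb1, an NF-κB subunit, rose with LPS (1.15 ± 0.06, adjusted p = 1.11e-06), above IFNγ (-1.10 ± 0.06 for IFNγ against LPS, adjusted p = 1.37e-06). Rfx5, which binds the X box, rose with IFNγ (0.47 ± 0.08, adjusted p = 0.00396), αCD3 (0.36 ± 0.08, adjusted p = 0.00567) and LPS (0.46 ± 0.08, adjusted p = 9.38e-04), a gene named after its values were seen. IFNγ was higher than αCD3 in 3 and lower in 4 of the 13 (15.8% and 21.4% of all tested genes). It was higher than LPS in 1 and lower in 5 (18% and 22.4%), and αCD3 was higher than LPS in 1 and lower in 4 (9.64% and 9.76%).

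In the IFNγ receptor pathway the feedback inhibitor Socs1 rose with IFNγ and LPS, while the receptor chain Ifngr1 fell with αCD3 and LPS and the chain Ifngr2 with IFNγ and αCD3. Of 5 genes tested, 1 rose and 1 fell with IFNγ, 2 fell with αCD3, and 1 rose and 1 fell with LPS. The counts with LPS are near the shares of all tested genes (26.9% rose and 22.3% fell). Socs1 was at 50.2, 77.2 and 115 CPM in Naïve, 43.4, 141 and 113 in αCD3, 331, 308 and 399 in IFNγ, and 88, 318 and 303 in LPS. It rose with IFNγ (2.10 ± 0.53, adjusted p = 0.0272) and LPS (1.55 ± 0.52, adjusted p = 0.0306) and was higher in IFNγ than in αCD3 (1.81 ± 0.52, adjusted p = 0.0203). The LPS call was not made with limma-voom, and LPS replicate 1 lay inside the Naïve range. The receptor chain Ifngr1 was at 675, 666 and 658 CPM in Naïve, 297, 223 and 250.3 in αCD3, 701, 693 and 682 in IFNγ, and 541, 522 and 571 in LPS. It fell by 1.37 with αCD3 on the log2 scale (adjusted p = 5.76e-06) and was lower there than in LPS (-1.08 ± 0.09, adjusted p = 2.49e-05) and IFNγ (1.43 ± 0.09 for IFNγ against αCD3, adjusted p = 3.65e-06). The gene that fell with IFNγ was Ifngr2 (-0.64 ± 0.11, adjusted p = 0.00423), and those that fell with αCD3 were Ifngr1 and Ifngr2, named after their values were seen. IFNγ was higher than αCD3 in 2 of the 5, and higher in 1 and lower in 1 than LPS, and αCD3 was lower than LPS in 2.

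To find genes with the most similar profile, log2 CPM over the 12 libraries was correlated with the mean standardised profile of the 10 genes, over 9605 candidate genes whose mean level reached 5 CPM. The points share libraries, groups and scaling, so the coefficients are descriptions. The 5 most similar were Gm12185 (Pearson r = 0.994), the ubiquitin ligase gene Trim21 (0.990), and the interferon-inducible GTPase genes Gbp9, Ifi47 and Iigp1 (0.989 each). Their log2 fold changes with IFNγ ranged from 1.91 for Trim21 to 4.78 for Iigp1, with αCD3 from 0.72 to 1.77 and with LPS from 1.52 to 3.71. Most similar to Nlrc5 alone were Ube2l6 (0.986), which takes part in ISG15 conjugation, Rnf114 (0.986) and Lacc1 (0.983). Within the 10 genes Tap1 lay closest to their mean (0.992) and Erap1 furthest from it (0.682), with H2-D1 at 0.926 and Tap2 at 0.944. Each of the 10 is itself part of that mean, which raises its coefficient, so these values do not compare with those of outside genes.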

How the data were processed

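RNA was sequenced as mRNA libraries from 12 samples in 4 groups of 3, grouped by their labels. Per the study's methods and the submitters' processing notes, the authors aligned reads with Kallisto to mm10, processed them further with DESeq2 1.24.0, and deposited estimated counts per gene symbol, unscaled and with 1 column per library. The Kallisto version, the transcript annotation and the strand setting are not given in the sources used here. Pseudo-alignment divides reads shared by similar transcripts, which affects the class I chains. Columns without a sample numbered 0.

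Counts were rounded to whole numbers. Depth was 10.2 to 27.6 M counts per library, and the 10 genes had at least 585 counts in each library, for a counting error (Poisson) of at most 4.13%. Levels are CPM on TMM-scaled library sizes. Differences were tested in R 4.3.3 with edgeR 4.0.16 (quasi-likelihood, filterByExpr, TMM, robust fit, all 12 libraries in 1 fit with group as the only term) in 6 contrasts and 1 test for any difference. Benjamini-Hochberg adjustment ran over the 12122 tested genes, and a gene was called at an adjusted p under 0.05. The procedure was also run on simulated counts with known changes. These were drawn without a shared replicate effect, so that run cannot speak to such an effect, and its outcome is not reported here. Alternatives were a replicate block, library size alone, DESeq2 size factors, DESeq2 1.42.0, limma-voom (limma 3.58.1), no filter, summed class I chains, fits of the 2 groups compared, each library left out, and, added after the data had been seen, all replicates numbered 1 left out.

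Replicate numbers come from the labels. Same-numbered libraries of different groups deviated together from their group means (r from 0.117 to 0.401 in all 18 pairs, against -0.354 to 0.102 for other pairs). Deviations cancel out within a group, so the values of other pairs partly follow from those of same-numbered pairs. The block was taken as a pairing of the libraries, which the main fit does not use. The labels do not say what a number marks.

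The genes, the gene lists and the motifs were chosen with earlier results of these data known. All 10 genes are named, genes of the pathway lists are named where called with at least a 2-fold change (at most 4 per list and comparison), marker lists are given as sums and counts, and others named are said to be chosen after their values were seen, which also holds for Cd74, Calr and Cd1d1 and for the marker genes given as a check. Similar profiles were ranked by Pearson correlation of log2 CPM with a prior count of 2. Annotation was GENCODE M21, which matched 20620 symbols, and promoters were the RefSeq table of GRCm38.p6. H2-T3, Nrdc and Hbb-bs had no row under those symbols and were not analysed here.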

Additional observations from a re-analysis of the deposited data

How the results depend on the processing

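All 10 genes were called with IFNγ and with LPS under each alternative that tested them, apart from Erap1 without IFNγ replicate 2 and H2-D1 with library size alone. Over 1242 values of single genes under 21 alternatives, 1160 kept their direction and side of the threshold, 43 lost a call, 38 gained one and 1 reversed, the αCD3 difference of H2-D1, which was -0.06 with library size alone (adjusted p = 0.366). In the counts that follow, the percentage is the share of all tested genes called in either direction in the same fit. The count for αCD3 against Naïve, 5 genes (38.6%), was 9 with the replicate block (52.4%), 9 with all replicates numbered 1 left out (48.8%), and 3 to 8 when single libraries were left out (25.4% to 40.2%). The count for IFNγ against αCD3, 9 genes (37.2%), was 10 with the replicate block (49.7%) and with all replicates numbered 1 left out (45.4%), Erap1 being lower in both, 8 with no filter (24.3%), 8 with only the 2 groups compared (33.2%), and 8 to 9 without single libraries (28.1% to 38%). The count for IFNγ against LPS, 5 genes (40.4%), was 7 with the replicate block (52.7%), 6 with library size alone (40.6%), 8 with all replicates numbered 1 left out (47.8%), and 3 to 5 without single libraries (31.9% to 41.1%). The count for αCD3 against LPS, 4 genes (19.4%), was 8 with the replicate block (34.7%), 8 with all replicates numbered 1 left out (29.4%), 1 with library size alone (20.3%), 2 with no filter (11.8%), 0 with only the 2 groups compared (12.3%, with 4 of the genes at an unadjusted p under 0.05 in edgeR) and 0 to 7 without single libraries (11.6% to 21%). The replicate block lost no call, and beside the calls it added that are given with the genes it changed none. Library size alone moved the median of all tested genes, on the log2 scale, from -0.02 to -0.16 (IFNγ against Naïve), -0.02 to -0.13 (αCD3 against Naïve), -0.01 to -0.22 (LPS against Naïve), -0.01 to 0.09 (αCD3 against LPS) and 0.04 to 0.11 (IFNγ against LPS), and the median of the 10 genes from 1.29 to 1.15, from 0.65 to 0.53, from 0.81 to 0.59, from -0.28 to -0.18 and from 0.28 to 0.36. Among called genes the higher share moved from 65.6% to 31.4%, from 59.3% to 44%, from 54.7% to 32.8%, from 49.7% to 68.8% and from 44.6% to 52.6%. The causes were not tested.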
